A study of Macaca mulatta with 16 samples.

Results

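Boundaries at which methylation jumps between neighbouring sites were studied in rhesus monkey (Macaca mulatta) whole blood. A boundary was defined as a pair of consecutive SmaI sites on chromosomes 1 to 20, at most 1000 bp apart, whose mean corrected methylation in AL-infant monkeys differed by at least 50 percentage points. The members were thus chosen by their AL-infant methylation values. A site was scored when no fewer than 10 of the 13 AL libraries had 100 reads or more there. Of 12736 consecutive pairs, 381 (2.99%) met this definition. They hold 749 of the 24288 scored sites (3.08%), namely 371 low-side and 378 high-side sites, since 10 low-side and 3 high-side sites belong to 2 pairs each.

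Methylation was measured in 16 monkeys, 1 library each, with digital restriction enzyme analysis of methylation (DREAM), in which SmaI cuts unmethylated CCCGGG sites and XmaI then cuts the methylated ones, so that the read start shows which enzyme cut. Among animals fed ad libitum (AL), AL-infant comprised 2 females and 2 males aged 0.8–0.9 years. AL-middle comprised 1 female and 4 males aged 10.4–12.1 years, and AL-old 1 female and 3 males aged 21.9–29.8 years. The 3 CR-old monkeys, all female and 23.7–25.1 years old, were under caloric restriction (CR), which had begun in adult life.

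In mammalian genomes most CpG dinucleotides are methylated, whereas CpG-rich stretches such as CpG islands at gene promoters are usually kept free of methylation. The edges of such stretches are therefore places where a site with little methylation can lie close to a heavily methylated one. Bound transcription factors, histone marks and the TET enzymes, which oxidise methylated cytosine, are known to keep the low side low, while the maintenance methyltransferase DNMT1 copies methylation to the new strand after replication. Annotation of the rheMac2 build was not used here, so the boundaries are given by SmaI site and coordinate, without gene or island.

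The sites of a boundary pair were 60 to 991 bp apart (median 208 bp), against a median of 154 bp (range 6–1000) in the other 12355 pairs. The share of pairs that were boundaries was 1.02% of pairs 1–100 bp apart (26 of 2545), 2.48% at 101–200 bp (155 of 6259), 4.26% at 201–300 bp (124 of 2910), 6.09% at 301–500 bp (39 of 640) and 9.69% at 501–1000 bp (37 of 382). Boundaries were thus a larger share of pairs in each longer distance class. In 356 pairs (93.4%) no further SmaI site lay between both sites, and in the other 25 only unscored sites did. The low side was at the lower coordinate in 200 pairs and at the higher one in 181. By chromosome, boundaries made up 0.599% (chromosome 5, 2 of 334) to 4.05% (chromosome 20, 32 of 791) of pairs, and chromosome 1 held the highest number, 41.

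AL-infant levels chose the pairs and are given as a description. The low side had a median of 11.9% (range 0.0425–48.2) and the high side of 83.7% (range 50.9–99.6), with a median gap of 62.3 points and a range from the limit up to 99.5. Most boundaries did not join a methylation-free site to a fully methylated one. The low side was under 5% in 121 pairs, the high side was over 90% in 118, and both held in 22. In 131 pairs the low side was at 20% or more, and in 159 the high side was under 80%. The pairs just inside the limit had gaps of 50.02, 50.06 and 50.09 points, and those just outside had 49.97, 49.94 and 49.89.

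The widest boundary joined SmaI_rheMac2_277742 and SmaI_rheMac2_277744, at positions 10083459 and 10084414 of chromosome 15. Its low site lay between 0.04 and 0.42% in the 15 libraries with data, and its high site between 94.31 and 99.77%. The next widest were SmaI_rheMac2_205057 and SmaI_rheMac2_205058 on chromosome 10 (84941270 and 84942156), with an AL-infant gap of 99.4 points, and SmaI_rheMac2_38263 and SmaI_rheMac2_38265 on chromosome 2 (47160336 and 47160684), with 98.5 points. The low sites of these 3 pairs were under 3%, the share that 3 reads make at the minimum of 100 reads, in every library with data. Gaps in these pairs were 91.9 points or more in every library with data except CR-old 28, where the chromosome 10 pair was at 87.36.

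The shortest boundaries showed that a jump can occur over a short stretch of DNA. SmaI_rheMac2_136696 and SmaI_rheMac2_136697, 60 bp apart on chromosome 7 (41230510 and 41230570), had means of 97.7% and 44.9% in AL-infant. In SmaI_rheMac2_287606 and SmaI_rheMac2_287607, 64 bp apart on chromosome 15 (99810677 and 99810741), the low site did not pass 0.48% in any library, while the high site ranged from 55.51 to 93.98%. SmaI_rheMac2_227124 and SmaI_rheMac2_227125, 65 bp apart on chromosome 11 (133606196 and 133606261), had a gap that varied from 29.27 to 60.44 points, with the low site at 32.56 to 65.84% and the high site at 77.81 to 95.11%. In the chromosome 7 and 11 pairs the low side was itself methylated, whereas the chromosome 15 pair stepped up from near 0.

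Total reads at the SmaI sites of all rheMac2 chromosomes ranged from 15842336 to 18946698 in AL-infant, 10363054 to 43940108 in AL-middle, 8067560 to 56837858 in AL-old and 18042448 to 126804562 in CR-old libraries. Median reads at low-side and high-side sites were alike within a library, from 186 and 190.5 in AL-old 24 to 4353 and 4518 in CR-old 28. The libraries were split here into 2 sets by the uncorrected reading of the spiked-in Luc306 standard. It was 27.3–32.03% in all AL-middle libraries and in CR-old 1 and 28. In all AL-infant and AL-old libraries and in CR-old 4 it was 41.4–68.2%. The comparison of AL-old with AL-middle therefore crosses the sets, and age class and library set cannot be told apart in it. The comparison of AL-old with AL-infant lies within 1 set, and so does that of CR-old 4 with AL-old. That of CR-old 1 and 28 with AL-old crosses the sets. The labels do not name these sets, and whether they were separate preparations is not given. The constants of the authors' correction did not follow the split, as AL-middle 46 (0.469) and 40 (0.507) lay on either side of CR-old 4 (0.494). A comparison within 1 set is therefore not known to be of matched libraries. Within the set with the higher readings, AL-infant had 41.4–56.0%, AL-old 50.1–68.2% and CR-old 4 42.6%. Whole blood is a mixture, so a change of methylation within cells and a change in the proportions of cell types cannot be told apart either.

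The first question was whether boundaries were as steep in old as in middle-aged monkeys. Averaged over the boundaries with at least 100 reads on both sides, the gap was 64.5, 63.1, 65.2, 64.7 and 63.9 points in AL-middle 17, 40, 42, 43 and 46. The AL-old monkeys 2, 7, 24 and 33 had 55.0, 59.4, 56.9 and 53.0 points. Every AL-old monkey was below every AL-middle monkey. The means were 56.1 ± 2.72 (SD, n = 4) and 64.3 ± 0.833 points (SD, n = 5), a difference of -8.20 (p = 0.00794 by a two-sided exact permutation test, which cannot give less with 4 against 5 monkeys). For description, the AL-infant monkeys 49, 52, 54 and 57, whose values chose the pairs, had 65.5, 65.6, 66.1 and 66.5 points. Choosing pairs for a wide gap in 1 group favours that group over the others. Over pairs that the same definition picks from AL-middle means, the mean gap was 65.6 points in AL-middle and 60.95 in AL-infant. How far the choice in AL-infant lowers the gap more in AL-old than in AL-middle was not tested.

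The high side carried the difference on the corrected scale. It was at 80.5, 77.5, 81.5, 79.3 and 77.6% in AL-middle and at 70.1, 74.0, 68.2 and 66.0% in AL-old, again without overlap. The means were 79.3 ± 1.75 (SD, n = 5) and 69.5 ± 3.40% (SD, n = 4), a difference of -9.75 points (exact permutation test, p = 0.00794). The low side was at 16.2, 14.7, 16.3, 14.8 and 13.8% in AL-middle and at 14.9, 14.6, 11.3 and 12.9% in AL-old, so the groups overlapped. Its means were 15.1 ± 1.07 (SD, n = 5) and 13.4 ± 1.69% (SD, n = 4), and the difference of -1.71 points did not pass the test (exact permutation test, p = 0.111).

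**Figure D1:**
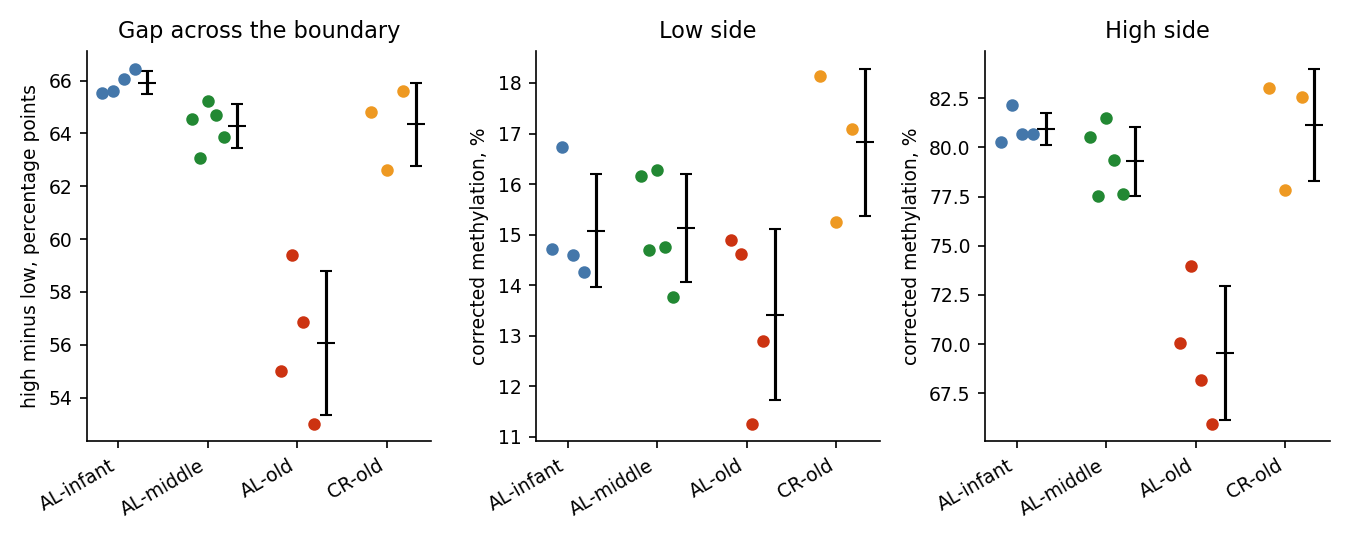
Gap in percentage points, low-side and high-side corrected methylation in percent, with 1 point per monkey in 4 groups and the group mean ± SD beside the points. Each point averages those of the 381 boundaries, or of their sites, with at least 100 reads in that monkey (309 to 380 boundaries). The 4 AL-old monkeys lie at gaps of 53.0–59.4 points, below all other monkeys, and at high-side levels of 66.0–74.0%.

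Which side moved depended on the authors' correction with the spiked-in standards, which multiplies the odds of methylation by 1 constant per library. Their group means were 0.340 (AL-old), 0.433 (AL-infant), 0.595 (AL-middle) and 0.631 (CR-old), so they differed between the groups compared. On the uncorrected percentages the gap was again narrower in AL-old, at 58.0 ± 1.44 (SD, n = 4) against 64.7 ± 0.742 points (SD, n = 5) in AL-middle (difference -6.70, exact permutation test, p = 0.00794). There the low side was higher in AL-old, by 5.90 points (27.4 ± 2.18 against 21.5 ± 1.42%, exact permutation test, p = 0.00794), and the high side, at 85.4 ± 3.40 against 86.2 ± 1.02%, did not pass the test (p = 0.611, exact permutation test). So the narrower gap was present on both scales, while the side it came from was not the same.

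**Figure D2:**
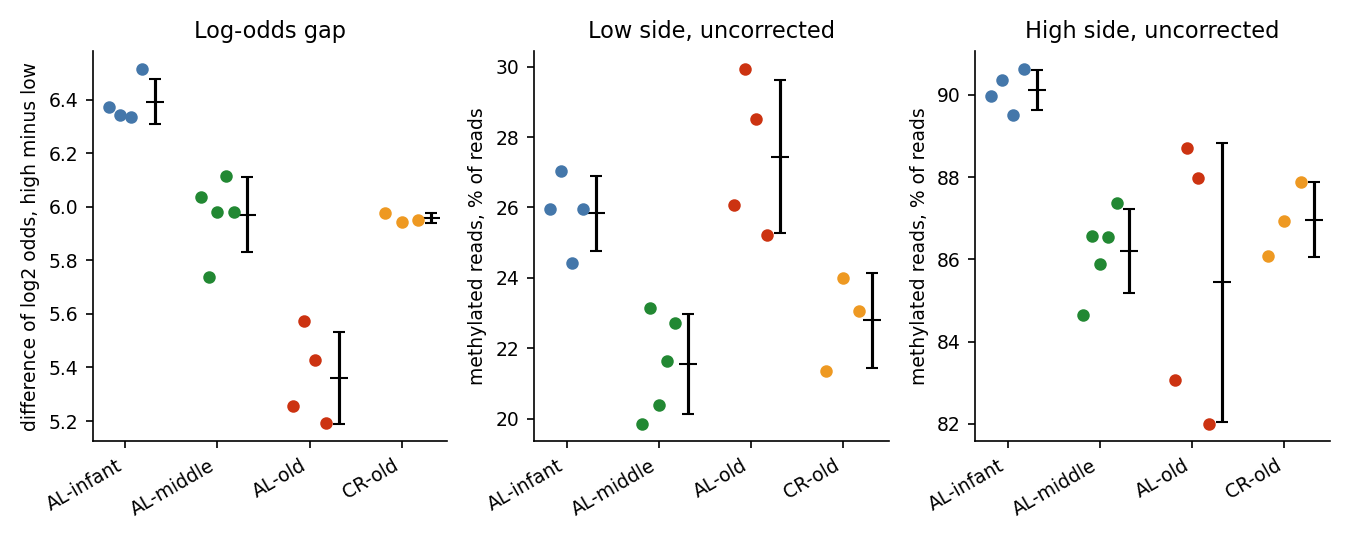
Log-odds gap (log2 odds of methylation at the high minus the low site), and low-side and high-side methylation in percent without the correction by standards. Values are over those of the 381 boundaries, or of their sites, with at least 100 reads in that monkey, with 1 point per monkey and group mean ± SD. The log-odds gap is lowest in the 4 AL-old monkeys (5.19–5.57), while the uncorrected low side is at a mean of 27.4% in AL-old and 21.5% in AL-middle.

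A measure in which the constant cancels is the difference of log2 odds of methylation between the high and the low site of a pair. It averaged 6.04, 5.74, 5.98, 6.11 and 5.98 in AL-middle and 5.26, 5.57, 5.43 and 5.19 in AL-old, without overlap. The difference of the means, 5.97 ± 0.14 (SD, n = 5) and 5.36 ± 0.17 (SD, n = 4), was -0.61 on the log2 odds scale (exact permutation test, p = 0.00794). AL-infant monkeys had 6.37, 6.34, 6.34 and 6.52, which chose the pairs. Among the 260 boundaries with a low side of 5% or more, where few reads do not set the odds of the low site, the difference was -0.59 (exact permutation test, p = 0.00794). In 96 of these the high side was over 90%, so few unmethylated reads could still set the odds there.

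The change was spread over many boundaries rather than carried by a few. From AL-middle to AL-old the mean gap was lower in 316 of 381 pairs (82.9%), with a median of -8.42 points, and it was lower by over 10 points in 164 pairs and higher by over 10 points in 9. High sites were lower in 346 of the pairs (median -9.90 points) and low sites in 236 (median -0.28 points). The other 12355 neighbouring pairs had a median change of 0.011 points, and those with an AL-infant gap of 20 to 50 points, 1199 in number, had a median of -3.79 points with a lower gap in 63.3%. These sets of pairs differ in their AL-infant gap, so the shares are given as descriptions.

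**Figure D3:**
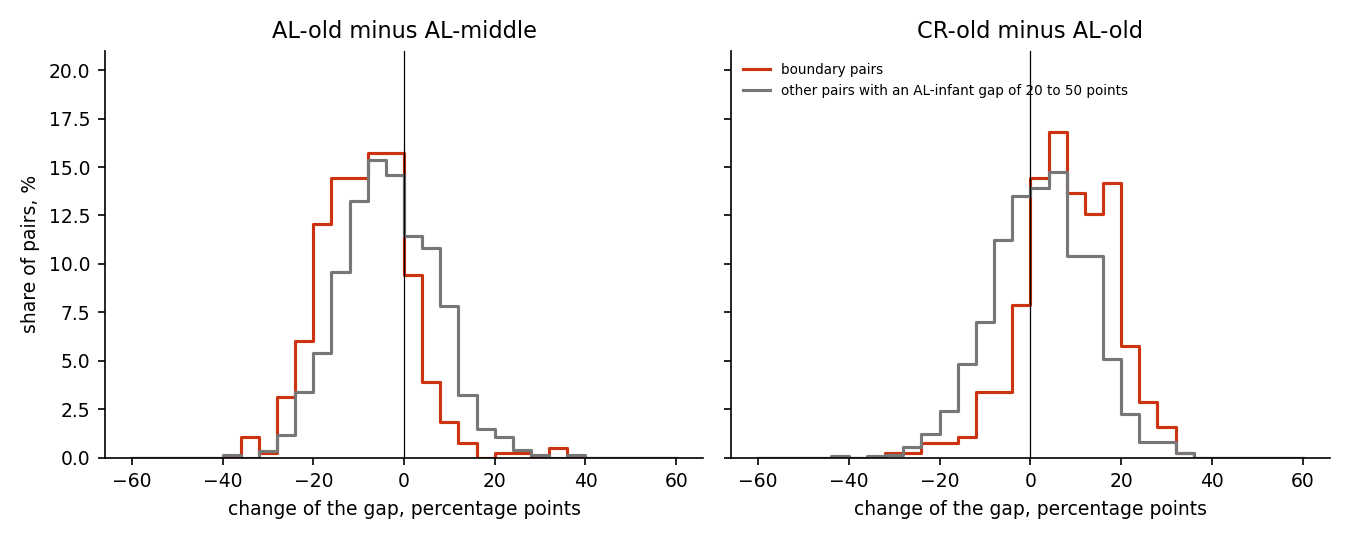
Share of pairs in percent against the change of the mean gap in percentage points, in bins of 4 points, for the 381 boundary pairs and for 1199 other pairs with an AL-infant gap of 20 to 50 points. Boundary pairs have a median of -8.42 points from AL-middle to AL-old and of 8.35 points from AL-old to CR-old; both panels share the AL-old monkeys.

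Pair by pair, limma on the log2 odds difference had enough data for 353 of the 381 boundaries, and 14 narrowed and 1 widened at an adjusted p under 0.05 (Benjamini-Hochberg over 11990 neighbouring pairs). Among all tested pairs 0.592% narrowed and 0.0667% widened. At an unadjusted p under 0.05, 125 boundaries (35.4%) narrowed and 8 widened, against 10.5% and 4.08% of all tested pairs. Most of the latter had little gap to lose, as the neighbouring pairs other than boundaries had a median AL-infant gap of 0.91 points. The median over the tested boundaries was -0.67, and over all tested pairs -0.14, on the log2 odds scale.

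The largest fall among the called boundaries was that of SmaI_rheMac2_175993 and SmaI_rheMac2_175994, 218 bp apart on chromosome 9 (43997207 and 43997425). Its gap was 62.48, 71.64, 71.36, 71.06 and 59.64 points in AL-middle and 33.07, 44.75, 27.71 and 28.15 points in AL-old. No AL-old monkey reached the AL-middle range, and both sides took part, with the low site higher (30.3 ± 7.66%, SD, n = 4, against 14.4 ± 6.03%, SD, n = 5) and the high site lower (63.8 ± 13.2 against 81.6 ± 6.61%) in AL-old. The log2 odds difference fell by 2.81 (SE 0.36, limma, adjusted p = 0.0136). In CR-old the gap was 67.12, 60.90 and 58.89 points.

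The pair SmaI_rheMac2_78516 and SmaI_rheMac2_78517, 83 bp apart on chromosome 3 (194777655 and 194777738), had gaps of 64.62, 61.98, 68.30, 62.24 and 63.18 points in AL-middle. In AL-old they were 45.49, 38.48, 39.15 and 0.40 points, so in AL-old 33 both sites stood at nearly the same level (48.71 and 49.11%). Its log2 odds difference fell by 2.55 (SE 0.51, limma, adjusted p = 0.0364). In CR-old the gaps were 62.82, 36.98 and 61.77 points, with CR-old 4 inside the range of AL-old.

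In SmaI_rheMac2_273175 and SmaI_rheMac2_273176, 126 bp apart on chromosome 14 (132564020 and 132564146), the low site stayed at 0.24–9.14% in all libraries. The high site was at 71.93, 65.96, 65.62, 64.67 and 71.51% in AL-middle and at 38.58, 48.83, 28.24 and 31.21% in AL-old, without overlap. The log2 odds difference fell by 2.44 (SE 0.36, limma, adjusted p = 0.0136). CR-old had high-site levels of 68.97, 45.59 and 63.84%, and AL-infant of 49.30 to 60.77%, between both AL adult groups.

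The only boundary called as widened was SmaI_rheMac2_173214 and SmaI_rheMac2_173215, 152 bp apart on chromosome 9 (18353447 and 18353599). Its gap was 29.68, 31.46, 21.06, 29.27 and 28.10 points in AL-middle and 57.71, 51.74 and 72.88 points in AL-old 2, 7 and 33, AL-old 24 having too few reads. AL-infant (56.72–61.29 points) and CR-old (49.79, 41.32 and 59.16 points) were also above AL-middle, so that AL-middle stood apart from the other groups at its high site (48.3 ± 4.34%, SD, n = 5). The log2 odds difference rose by 2.51 (SE 0.35, limma, adjusted p = 0.0136).

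**Figure D4:**
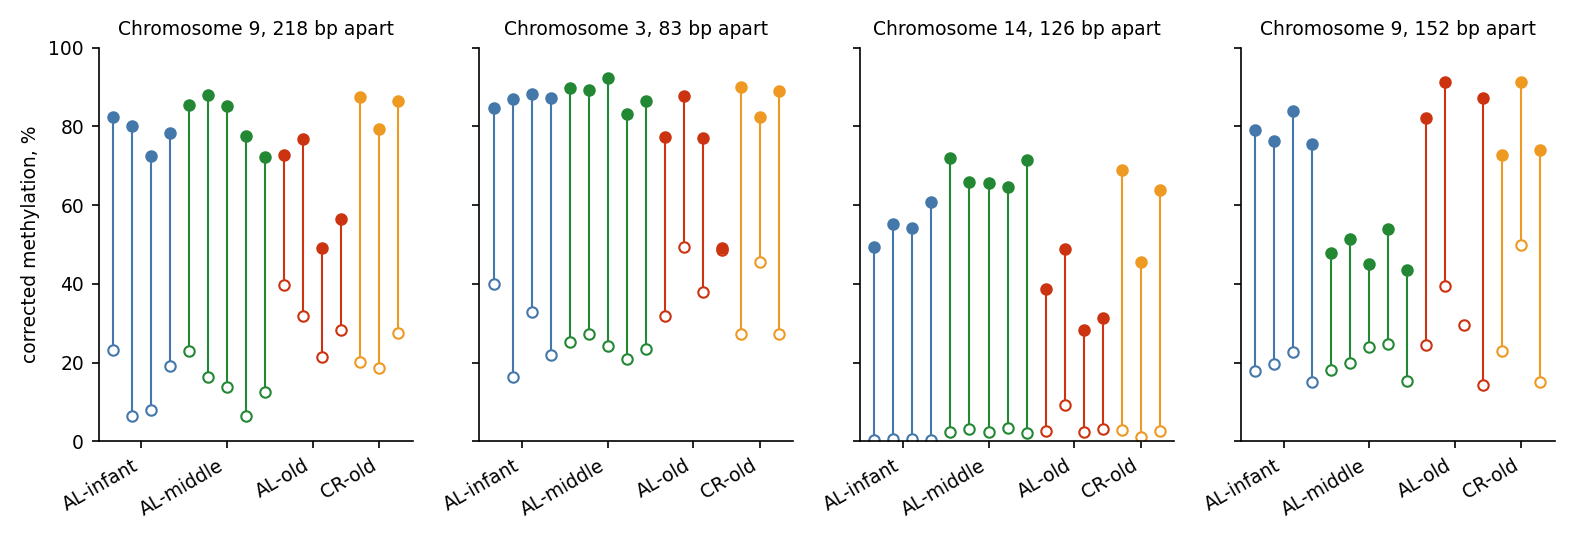
Corrected methylation in percent at the low site (open circles) and high site (filled circles) in each monkey, ordered by group, for the 3 called boundaries with the largest narrowing and the 1 called as widened. On chromosome 9 (218 bp) the gap is 59.64–71.64 points in AL-middle and 27.71–44.75 points in AL-old, and in the last panel AL-middle has the lowest high-site values.

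Counts at single sites were tested with a quasi-binomial model that held the correction constants as an offset, fitted over all 23394 autosomal sites with enough data. From AL-middle to AL-old, 104 of 357 tested high-side sites lost and 5 gained methylation at an adjusted p under 0.05, and 31 of 354 tested low-side sites lost and 14 gained it. Among all tested sites 14.0% lost and 2.68% gained. The high-side share of 29.1% was near the 27.9% lost among all sites at 50% or more in AL-infant, of which 0.626% gained. The low-side share lost, 8.76%, stood against 2.97% of all sites under 50%, and the share gained, 3.95%, against 4.34%. These classes differ in starting level, since 121 of 381 pairs had a low side under 5%, whereas 9899 scored sites away from boundaries lay under 5% among like neighbours. Without the offset 92 low-side sites gained and 2 lost, and 22 high-side sites gained and 12 lost, against 13.3% gained and 1.36% lost among all sites, so the direction of these counts too depended on the correction. By limma on log2 odds, with the same correction constants included, 124 high-side and 29 low-side sites lost and 4 and 6 gained. Among all sites 19.1% lost and 2.26% gained. This fit shares the correction, so it is no check on it.

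High-side sites with the largest falls were SmaI_rheMac2_273176 (above), SmaI_rheMac2_307324 on chromosome 16 (74397555), and SmaI_rheMac2_59066 on chromosome 3 (32904513). SmaI_rheMac2_307324 was at 79.37, 72.22, 80.55, 81.75 and 74.82% in AL-middle and at 48.71, 49.74, 48.44 and 43.66% in AL-old (quasi-binomial model, adjusted p = 0.000398). SmaI_rheMac2_59066 fell from 94.2 ± 1.03 (SD, n = 5) to 64.2 ± 4.80% (SD, n = 4; quasi-binomial model, adjusted p = 0.000331). Its neighbour 151 bp away, SmaI_rheMac2_59067 (32904664), had the largest change of the called low-side sites with data in all monkeys compared, from 33.1 ± 8.55 (SD, n = 5) to 4.24 ± 2.49% (SD, n = 4; adjusted p = 0.00208), so both sides of this boundary fell and its gap was about as wide in both groups. AL-infant had 5.77 ± 1.66% at SmaI_rheMac2_59067, near the AL-old level.

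Of the other low-side sites with large changes, SmaI_rheMac2_96620 on chromosome 4 (164431414) fell from 38.4 ± 9.85 (SD, n = 5) to 19.7 ± 4.58% (SD, n = 4; quasi-binomial model, adjusted p = 0.0420). SmaI_rheMac2_78516, the low side of the chromosome 3 pair described above, rose from 24.2 ± 2.37 (SD, n = 5) to 41.9 ± 8.50% (SD, n = 4; adjusted p = 0.0128). Without the offset the fall at SmaI_rheMac2_96620 did not pass the threshold (adjusted p = 0.257), whereas the other changes named here did (adjusted p from 0.00382 to 0.0455).

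AL-old was also compared with AL-infant, on the same side of the Luc306 split though with unlike mean correction constants (0.340 and 0.433). Since AL-infant chose the boundaries, this was done over 426 pairs that the same definition picks from AL-middle means, of which 313 are shared (82.2% of the AL-infant list and 73.5% of the AL-middle list). Over these the gap was 60.5, 60.4, 61.03 and 61.9 points in AL-infant 49, 52, 54 and 57 and 55.0, 59.0, 56.8 and 53.3 points in AL-old, without overlap. The means were 60.95 ± 0.670 (SD, n = 4) and 56.0 ± 2.47 points (SD, n = 4), a difference of -4.92 (exact permutation test, p = 0.0286, the smallest that 4 against 4 allow). High sides differed by -8.16 points (70.9 ± 3.13 in AL-old against 79.1 ± 0.813%), low sides by -3.36 points (14.9 ± 1.69 against 18.3 ± 1.22%) and log2 odds differences by -0.78 (each p = 0.0286, exact permutation test, n = 4 and 4). Uncorrected, the gap differed by -2.65 points (exact permutation test, p = 0.0286), and neither the low side (0.28 points, p = 0.829) nor the high side (-2.23 points, p = 0.314) passed the exact permutation test on its own.

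In this list of AL-middle boundaries, 114 of 419 tested high sites lost and 10 gained methylation from AL-infant to AL-old, and 70 of 415 low sites lost and 41 gained, with 20.9% lost and 15.3% gained among all 33845 tested sites. The high-side share, 27.2%, was below the 42.1% lost among all sites at 50% or more in AL-middle, of which 0.496% gained. On the low side 16.9% lost and 9.88% gained, against 3.89% and 27.4% of all sites under 50% in AL-middle.

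The second question was whether boundaries under caloric restriction were as steep as in AL-old monkeys. CR-old monkeys were 24.6 ± 0.757 years old (SD, n = 3) and AL-old monkeys 26.2 ± 3.97 (SD, n = 4), with AL-old 7 and 33, at 29.8 and 29.3 years, older than any CR-old monkey. AL-old 2 and 24, at 23.7 and 21.9 years, had the gaps of 55.0 and 56.9 points given above. In CR-old 1, 4 and 28 the gap was 64.8, 62.6 and 65.6 points, above all 4 AL-old monkeys. The mean of 64.3 ± 1.56 points (SD, n = 3) exceeded that of AL-old by 8.26 points (exact permutation test, p = 0.0286, the smallest that 3 against 4 allow). High sides were at 83.0, 77.8 and 82.6%, or 81.1 ± 2.87% (SD, n = 3), which is 11.6 points above AL-old (exact permutation test, p = 0.0286). Low sides were at 18.1, 15.3 and 17.1%, or 16.8 ± 1.46% (SD, n = 3). They were 3.41 points above AL-old, also without overlap, but did not pass the test (exact permutation test, p = 0.0571).

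On the scale free of the correction, the log2 odds difference was 5.98, 5.94 and 5.95 in CR-old, 0.59 above AL-old (exact permutation test, p = 0.0286). CR-old 4 lies on the AL-old side of the split by the Luc306 reading. It exceeded the AL-old mean by 6.52 points in the gap, 8.29 points on the high side and 0.58 in log2 odds. Its correction constant, 0.494, was above those of all AL-old libraries (0.250–0.424), so the correction was not alike in this comparison. Sex moved with diet here, since all CR-old monkeys were female and only 1 AL-old monkey was, so their parts cannot be told apart. CR-old 1 and 28 lie across the Luc306 split from all AL-old libraries. They also had more reads, 121004338 and 126804562, than any AL-old library (8067560 to 56837858). For CR-old 1 and 28, library set and depth cannot be told apart from diet either. The CR-old mean exceeded AL-old 2, the female AL-old monkey, by 9.34 points in the gap and 0.70 in log2 odds, without a test. Uncorrected, the gap was 64.2 ± 1.07 points (SD, n = 3), 6.18 above AL-old (exact permutation test, p = 0.0286). The uncorrected low side was 4.65 points below AL-old (22.8 ± 1.34%, p = 0.0571) and the high side 1.52 points above (87.0 ± 0.911%, p = 0.457), neither past the exact permutation test.

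From AL-old to CR-old the gap was higher in 313 of 381 pairs (median 8.35 points), by over 10 points in 168, and lower by over 10 points in 20. High sites were higher in 357 pairs (median 11.2 points) and low sites in 279 (median 1.37 points). The other neighbouring pairs had a median change of -0.011 points, and those with an AL-infant gap of 20 to 50 points had 2.57 points. AL-old monkeys serve in both comparisons, so the mirrored values do not come from independent samples.

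No single boundary passed limma at an adjusted p under 0.05 between CR-old and AL-old, among 364 tested, and none of all 12306 tested pairs did (0%). At an unadjusted p under 0.05, 99 boundaries widened and 5 narrowed, against 5.92% and 2.60% of all tested pairs, most of which had small AL-infant gaps. The median was 0.60 for boundaries and 0.08 for all pairs on the log2 odds scale. In the quasi-binomial model with the offset, 124 of 362 high-side sites gained methylation in CR-old and 0 lost it (3 at an unadjusted p under 0.05, and 0 by limma on log2 odds). On the low side 49 of 363 gained and 6 lost. Among all 33134 tested sites 13.0% gained and 0.492% lost. Gains of 34.3% on the high side stood against 25.1% among all sites at 50% or more in AL-infant, and of 13.5% on the low side against 3.53% among those under 50%, while 0.0892% and 0.811% of these sites lost. As in the counts from AL-middle to AL-old, boundary sites and these classes differ in starting level. By limma on log2 odds, again with the correction constants included, 54 high-side and 12 low-side sites gained and 0 lost. Among all sites 6.14% gained and 0.0755% lost. Without the offset 3 high-side and 0 low-side sites gained (39 and 8 at an unadjusted p under 0.05), and 1 and 29 lost, with 0.145% gained and 1.89% lost among all sites.

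Among high-side sites, SmaI_rheMac2_189573 on chromosome 10 (2593693) was at 50.48, 52.77, 45.03 and 39.07% in AL-old and at 83.17, 72.26 and 84.62% in CR-old (quasi-binomial model, adjusted p = 0.00606). SmaI_rheMac2_295754 on chromosome 16 (22834729) was at 24.76, 33.69, 17.31 and 22.29% in AL-old and at 63.03, 47.85 and 53.72% in CR-old (adjusted p = 0.0145), beside a low site under 1% in mean. SmaI_rheMac2_259225 on chromosome 14 (8834812) had 42.97 ± 2.38% in AL-old (SD, n = 4) and 73.2 ± 9.23% in CR-old (SD, n = 3; quasi-binomial model, adjusted p = 0.00464). All 3 were above every AL-old monkey in all CR-old monkeys. Their AL-infant means were 77.7, 57.4 and 88.4%.

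On the low side, SmaI_rheMac2_175128 on chromosome 9 (33332258) was at 13.63, 16.73, 12.74 and 13.61% in AL-old and at 41.88, 36.88 and 36.43% in CR-old (quasi-binomial model, adjusted p = 0.00298), above its AL-infant mean of 24.9%. SmaI_rheMac2_143078 on chromosome 7 (83347648) had 38.9 ± 6.91% in AL-old (SD, n = 4) and 61.4 ± 7.10% in CR-old (SD, n = 3; adjusted p = 0.0125). SmaI_rheMac2_239560 on chromosome 13 (4718396) had 29.4 ± 10.3% in AL-old (SD, n = 4) and 53.3 ± 16.99% in CR-old (SD, n = 3; adjusted p = 0.0296), with CR-old 4 at 34.95%, inside the AL-old range. None of these 6 gains passed the threshold without the offset (adjusted p from 0.0504 to 0.412).

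Boundary sites were then set against sites of the same AL-infant class, under 5% or over 90%, that had only neighbours of that class within 1000 bp. The low classes did not start level, as in AL-infant monkeys boundary sites were at 1.20–1.65% and the other sites at 0.309–0.395%. The 118 low-side sites under 5% rose by 0.46 points from AL-middle to AL-old, and 9899 other sites under 5% by 0.35 points, neither past the exact permutation test (p = 0.143 and 0.0794). Their difference in change was 0.11 points (exact permutation test, p = 0.437). The 118 high-side sites over 90% fell by 6.93 points, from 92.2 ± 1.08 to 85.3 ± 2.78%, and 3081 other sites over 90% fell by 6.43 points, from 92.6 ± 1.22 to 86.2 ± 2.98% (each p = 0.00794, exact permutation test). The difference in change, -0.50 points, was not past the test (p = 0.159, exact permutation test). From AL-old to CR-old the differences in change were 0.11 points on the low side (p = 0.6) and 0.83 points on the high side (p = 0.143, exact permutation tests). On the corrected values with all monkeys, none of these 4 differences in change passed the test. On the low side from AL-middle to AL-old the difference was 1.20 points uncorrected (p = 0.00794) and 0.259 points without AL-old 24 (p = 0.0357, exact permutation tests), so this call depended on the correction and on 1 library.

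By starting level, the 22 boundaries with a low side under 5% and a high side over 90% kept the widest gap in AL-old, 89.8 ± 1.87 points (SD, n = 4) against 93.1 ± 0.537 in AL-middle (SD, n = 5). The 164 with neither extreme had 48.99 ± 2.79 against 57.6 ± 1.22 points. The 99 with only an extreme low side had 56.2 ± 4.10 against 68.1 ± 1.75 points, and the 96 with only an extreme high side 60.6 ± 3.29 against 66.0 ± 1.43 points. CR-old had 93.5, 57.6, 69.4 and 64.2 points in the same order. AL-old was lowest in each class.

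By distance, the 26 boundaries 1–100 bp wide had mean gaps of 67.0 points in AL-middle, 56.3 in AL-old and 65.3 in CR-old, and the 37 boundaries of 501–1000 bp had 72.0, 64.5 and 72.8 points. AL-old was the lowest of the 3 groups in every distance class.

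Beyond the boundary itself, the next scored sites outward on each flank kept the difference in level. On the high flank, the next site after the boundary site (81 sites) was at 72.7 ± 2.33% in AL-middle (SD, n = 5), 67.6 ± 2.65% in AL-old (SD, n = 4) and 75.1 ± 1.51% in CR-old (SD, n = 3), and the one after it (18 sites) at 70.05, 62.0 and 72.1%. On the low flank the next site (115 sites) was at 25.0 ± 0.909, 21.1 ± 0.947 and 26.8 ± 2.11%, and the one after it (44 sites) at 19.6, 17.7 and 22.0%. The flanks beyond the boundary were thus less extreme than the boundary sites, which the rule selected for their difference. All flank levels are corrected values. Uncorrected, the low side of the boundary was higher in AL-old (27.4%) than in AL-middle (21.5%), and uncorrected flanks were not measured.

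**Figure D5:**
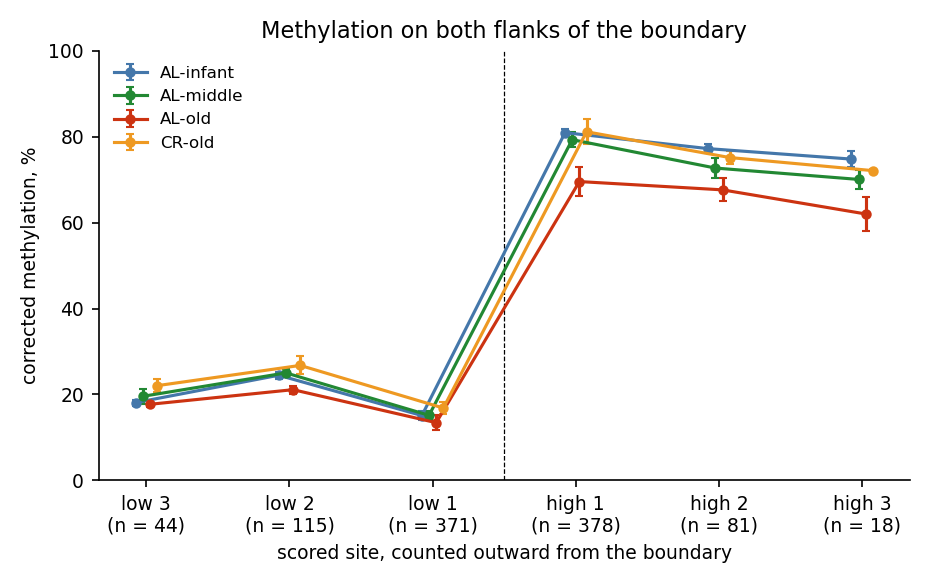
Mean corrected methylation in percent (± SD over the monkeys of a group) at scored sites 1, 2 and 3 outward from the boundary on the low and the high flank. The number of sites falls from 371 to 44 on the low flank and from 378 to 18 on the high flank. On this corrected scale AL-old is the lowest group at each step, by little at low site 3 (17.7% against 18.1% in AL-infant).

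Within single monkeys, the share of boundaries that kept a gap of at least 50 points was 79.6–84.4% in AL-middle, 55.3–73.7% in AL-old and 78.0–84.8% in CR-old, and 88.8–91.2% in AL-infant by construction. A reversal, with the low site above the high site, was seen at 2 boundaries in AL-old 7, 2 in CR-old 1 and 1 in CR-old 28, and at 0 in the other monkeys.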

How the data were processed

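DNA of whole blood from 16 monkeys was digested with SmaI and then XmaI after standards of 0, 25, 50 and 100% methylation had been added. The authors aligned reads to rheMac2 and deposited, for each SmaI site and library, counts of methylated, unmethylated and total reads without normalization. They also deposited 2 values in percent, the share of methylated reads after adding 0.5 reads, and a corrected percent whose odds are multiplied by 1 constant per library; the relation was checked on the values. The submitters' processing notes name Bowtie2 and SAMtools, whose versions are not given in the sources used here. They also name another genome build, whereas the design text and the site names give rheMac2. The youngest monkeys, called young in the labels, are the AL-infant class of the paper.

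Values under 100 reads were left out. At 100 reads, 3 reads (3%) were taken as the smallest share distinguishable from 0; reads amplified by PCR are not independent molecules, so this covers counting error only. Members, lists and tests were chosen with earlier results of these data known. Monkeys were compared by exact two-sided permutation tests of the difference of means. Sites with data in at least 3 monkeys per group were fitted with a quasi-binomial model on counts (log of the correction constant as offset, dispersion moderated by limma), and pairs with limma on log2 odds (0.5 reads added, variance trend), each with Benjamini-Hochberg adjustment over all sites or pairs. Limma at single sites used log2 odds with the log2 of the correction constant added. Neighbouring sites can be read from the same fragments. Named were the 3 widest and 3 shortest pairs, the 3 nearest to the limit on each side, and, among calls at an adjusted p under 0.05, the 3 pairs and, with data in every monkey of both groups compared, the 3 low-side and 3 high-side sites with the largest change. The comparison of site counts between AL-old and AL-infant, AL-old 2 alone, and members chosen on uncorrected values were added after seeing the data. Scripts were tested on simulated data and used Python 3.11.15, numpy 2.4.6, pandas 2.3.3, matplotlib 3.10.9, R 4.3.3 and limma 3.58.1. Alternatives were coverage minimums of 20 and 200 reads, gap limits of 40 and 60 points, a distance limit of 200 bp, uncorrected values, and each monkey left out in turn.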

Additional observations from a re-analysis of the deposited data

How the results depend on the processing

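The narrower gap in AL-old than in AL-middle and AL-infant and the log2 odds differences in all 3 comparisons kept direction and call under every alternative with a full set of monkeys, but the gap differences were smaller by over 1.5 times with members chosen and measured on uncorrected values (-5.12 for AL-old minus AL-middle and 4.90 for CR-old minus AL-old) and, for AL-old minus AL-infant, at a distance limit of 200 bp (-2.70) and uncorrected (-2.65). For CR-old against AL-old, the gap missed the threshold with a coverage minimum of 200 reads (8.43 points, p = 0.0571) and a gap limit of 60 points (8.16, p = 0.0571, exact permutation tests), and CR-old 4 alone gave 8.29 points on the high side.

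The sides depended on the correction. Uncorrected, with the same members, the low side changed by 5.90 points from AL-middle to AL-old, by -4.65 to CR-old and by 0.278 from AL-infant to AL-old, each opposite to the corrected sign, and the high side by -0.762, 1.52 and -2.23 points, none past the test. With members also chosen on uncorrected values, the low side changed by 5.33, -4.24 and 1.42 points and the high side by 0.292, 0.631 and -1.98. Corrected low sides passed the test at 20 reads (-2.84 to AL-old, p = 0.0397), and for CR-old at 200 reads (3.45) and a limit of 40 points (4.54, both p = 0.0286, exact permutation tests); from AL-infant to AL-old they missed it at a limit of 60 points (-1.68, p = 0.114).
Low boundary sites against other low sites differed by 1.20 points uncorrected (exact permutation test, p = 0.00794) and -0.173 at 20 reads from AL-middle to AL-old, and by -0.936 uncorrected and -0.0518 at 200 reads to CR-old.

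Counts of boundary sites also moved. From AL-middle to AL-old, 19 gained and 135 lost, against 114 and 14 without the offset, 10 gained by limma, and 238 lost at 20 reads. To CR-old, 173 gained and 6 lost, against 3 and 30 without the offset, 66 and 0 by limma, 109 gained at 200 reads and 10 lost at 20 reads. From AL-infant to AL-old, 51 gained and 184 lost, against 86 and 85 without the offset, 100 and 323 at 20 reads, and 31 gained at 200 reads. At other coverage minimums the list of members itself differs (744 pairs at 20 reads, 231 at 200); for the other changes the cause was not tested.

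With 1 monkey left out, the difference ranged for the gap from -9.31 to -7.18 (AL-old minus AL-middle), 7.25 to 9.38 (CR-old minus AL-old) and -5.92 to -4.01 points (AL-old minus AL-infant), for the high side from -11.2 to -8.55, 10.4 to 13.2 and -9.46 to -7.00, for the low side from -2.20 to -0.996, 2.69 to 4.20 and -3.95 to -2.69, and for log2 odds from -0.68 to -0.55, 0.54 to 0.67 and -0.86 to -0.73. Leaving out a CR-old monkey leaves 2 against 4, for which the exact permutation test cannot go below p = 0.0667. Without any single AL-infant monkey the gap and both sides had p = 0.0571 (exact permutation test). The difference between boundary and other low sites ranged from 0.0488 to 0.259 (0.259 without AL-old 24, p = 0.0357, exact permutation test) and from -0.0316 (without AL-old 24) to 0.249, and between high sites from -0.644 to -0.311 and 0.628 to 1.17 points. Boundaries called from AL-middle to AL-old ranged from 5 to 28 (5 without AL-old 2 or AL-middle 17, 42 or 46, 9 without AL-old 33 or AL-middle 43, 28 without AL-old 7), and to CR-old they stayed at 0. Sites gained to AL-old ranged from 5 to 17 (5 without AL-middle 17, 7 without 46, 9 without 42 or AL-old 2, 10 without AL-middle 43) and sites lost from 67 (without AL-middle 17) to 197. To CR-old, sites gained ranged from 88 to 217 (88 without CR-old 1, 89 without CR-old 28, 97 without AL-old 24, 98 without AL-old 2) and sites lost from 1 to 10 (1 without CR-old 4 or AL-old 2, 2 without CR-old 1, 10 without AL-old 33). From AL-infant to AL-old, sites gained ranged from 29 (without AL-infant 57; 33 without 54) to 65 and sites lost from 106 (without AL-infant 52; 122 without 54) to 252.

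No paired analysis was possible because the groups share no replicate numbers, each number belonging to 1 monkey.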

Other observations

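When boundaries were picked from each group's own means by the same definition, AL-middle had 426, AL-old 338 and CR-old 425, against 381 in AL-infant. Of the AL-old boundaries 238 were AL-infant boundaries too (70.4% of the AL-old list and 62.5% of the AL-infant list), and of the CR-old boundaries 321 were (75.5% and 84.3%). The numbers of monkeys behind the means differ (5, 4, 3 and 4), and so do the library sets.

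Monkeys of the AL-old group differed more from each other at single boundaries. The median over pairs of the SD of the gap was 7.57 points in AL-old, 4.82 in AL-middle and 4.89 in CR-old, and 4.68 in AL-infant, whose values chose the pairs. AL-old also holds the library with the fewest reads, AL-old 24, and the widest range of ages, 21.9–29.8 years. The parts of depth and of age range in this spread were not tested.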
